A study of Mus musculus with 30 samples.

Results

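The arrays hybridised with RNA from the lungs of mice titled Norm give the baseline of a study of lungs held in low oxygen. They were chosen by title. Of 30 arrays in the series, 6 carry Norm in the title and 5 were used, namely sample 1b on the array type A and samples 1a and 1b on the types B and C. The remaining one carries a type A title yet was deposited among the B values, and it was left out. The 3 types are the Affymetrix MG-U74 version 2 arrays, short-oligonucleotide arrays on which a set of probes stands for each transcript and each type carries different probe sets. The series set this group against mice kept in a chamber with 10% oxygen for 10 h, 2 d, 4 d or 6 d to bring on pulmonary hypertension, again with samples 1a and 1b on each type. Strain, age and sex were not given in the labels, and the free text of the Norm samples mentions a rejection, which their titles do not, so the titles were followed. Whether 1a and 1b are different animals is not given, so the differences between them may be technical.

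Before the results, the labels were set against the values. The array left out had Spearman correlations of -0.00391 to 0.00795 with the B arrays over 12411 probe sets, so its values do not line up with the probe sets of that table. On type A, the deviations of the array labelled Norm 1b from the mean of all A arrays were set against the same genes' deviations on B (266 genes) and C (343 genes). They correlated best with the 4 d 1a arrays (0.296 on B and 0.231 on C) and hardly with the Norm arrays (0.0101 and 0.0444 on B, -0.0215 and 0.0488 on C). The A array labelled 4 d 1a had its highest value on B with Norm 1a (0.231), but on C with its own group, at 0.0777 with 4 d 1b against 0.0600 and -0.0689 with Norm 1a and 1b. Of the 9 A arrays, 6 had their best match on B within their own group, and 8 on C; between B and C this held for 4 of 10. Of the 17 tested cell cycle genes of type A, 16 were lower on the array labelled Norm 1b than on the one labelled 4 d 1a. Over all 4951 named genes tested on A, 2258 were lower and 2413 higher. Higher on the array labelled Norm 1b than on the one labelled 4 d 1a were 12 of 17 heart genes. The same held for 10 of 12 skeletal muscle genes and 7 of 8 fat genes. Both labels were followed, values of the A array labelled 4 d 1a are given beside those of Norm where they matter, and a mix-up was not tested further.

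The lung is built of an air-facing epithelium, a dense capillary bed and the matrix between them. Alveolar type 2 cells make surfactant, flat alveolar type 1 cells form the gas exchange surface, and club and ciliated cells line the airways. A profile of the whole organ is therefore a mixture, in which fewer cells of a type and less RNA per cell cannot be told apart.

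Brightness was read as a percentile, the rank of a probe set among the 12422 (A), 12411 (B) or 11868 (C) probe sets of its type, averaged over 1a and 1b on B and C. Genes at percentile 90 or over were called bright, those under 40 dim, and the rest middling. The intensity at percentile 40 over all arrays of a type, called the floor here, was 236.0 for A, 297.4 for B and 200.9 for C. Each gene was read from 1 probe set. Within a type a plain probe set came before a suffixed one, whose name ends in a letter for probes that match several transcripts or that broke the design rules, and between types the one that ranked highest was taken. A gene can therefore be dim here while another of its probe sets is bright. By this rule 15.5% of the 15964 named genes were bright, 57.5% middling and 27.0% dim, and these shares are the background for every list below. A probe set's intensity also depends on the sequence of its probes, so a rank describes a probe set and is not an amount of transcript. The 19 sense-strand and yeast control probe sets, which should find no target in mouse RNA, lay at a median percentile of 28.0 on A, 26.7 and 42.7 on B, and 54.8 and 56.0 on C. At or over the floor stood 3 of these 19 on A, 8 (1a) and 10 (1b) on B, and 15 on each C array. The highest of them reached percentile 51.3 on A, 77.5 and 72.2 on B, and 91.8 and 86.8 on C. A percentile below these, and so most middling ranks of B and C, does not show that a transcript was detected. Intensities were spread unevenly, with the brightest 10% of the probe sets holding 54.7% of all signal on A, 45.3% and 48.6% on B, and 59.1% and 61.0% on C.

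The brightest genes of type A mixed genes that every cell uses with genes of alveolar, airway, stromal and immune cells. Tpt1, a widely expressed growth-related protein, led at an intensity of 23383, against 11931 to 31444 on the 8 hypoxia arrays. Next came Aldh1a1, a retinaldehyde dehydrogenase that is on the club cell list, at 22164, and Actg1, a cytoplasmic actin, at 21396. App, the amyloid precursor protein, stood at 20538, Wdr92 at 19657 and Cd74, the invariant chain of MHC class II, at 19575. The lysosomal membrane protein gene Lamp1 (19373), the secreted glutathione peroxidase Gpx3 (18889) and the lysozyme gene Lyz2 (18864), made by macrophages, followed closely. Bgn, a matrix proteoglycan, had 18627. Ribosomal protein genes held 3 of the 20 places, Rps3a1 (18223), Rplp0 (17753) and Rpl8 (17284), and the ferritin heavy chain gene Fth1 had 17767. Itgb1, the integrin beta 1 chain, stood at 17676 on a suffixed probe set, and Ybx1, an RNA-binding protein gene, at 17205. Lung genes closed the list: Sftpb, a surfactant protein of type 2 cells, at 17146, Ager, the receptor that marks type 1 cells, at 17124, and Inmt, a methyltransferase abundant in lung stroma, at 16621, ahead of the chloride channel gene Clic4 at 16447. The first and the last of these 20 differed by less than the range of most of them over the hypoxia arrays, so their order within the list is loose. The A array labelled 4 d 1a had 14 of the 20 among its own 20 brightest, and the mean of the hypoxia arrays had 15.

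On type B the brightest genes included several of endothelium and of alveolar epithelium. Epas1, which encodes the hypoxia-inducible factor HIF-2 alpha and is strongly expressed in lung endothelium, had intensities of 20553 on 1a and 31318 on 1b. Bmpr2, the BMP receptor whose mutations cause heritable pulmonary arterial hypertension, had 21338 and 23137. Heg1, a junction protein of endothelium, had 18131 and 23380, Mxra8, a matrix-associated adhesion protein gene, 17180 and 23247, and the adhesion molecule gene Alcam 17869 and 21068. These 5 genes were higher on 1b in each case, by 0.12 (Bmpr2) to 0.61 (Epas1) on the log2 scale. Tns1 (16320 and 20673) encodes a focal adhesion protein, Scn7a (16482 and 18706) a sodium channel, and Ptprb (15419 and 19046) the vascular endothelial protein tyrosine phosphatase. Emp2, a membrane protein of type 1 cells, had 14897 and 18443, and Plpp3, a lipid phosphatase gene, 14586 and 16373. The kinase gene Hipk1 (13345 and 16993), Lpcat1 (14182 and 15736), whose enzyme makes the saturated lipid of surfactant, Myof (13231 and 14724), Arhgef12 (12065 and 14495) and Strn3 (12572 and 13604) completed the 15. All 15 were brighter on 1b than on 1a, by at most 0.61, and 13 of them were also among the 15 brightest of the hypoxia mean.

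Type C reached the highest intensities, but 11 of its 15 brightest genes were read from suffixed probe sets. Laptm5, a lysosomal protein gene of blood cells, had 47833 and 57124, and Nfkbia, the inhibitor of NF-kappa B, 46320 and 52323. Nkx2-1, the transcription factor that sets lung identity, had 39356 and 51430, and Lamp3, a lamellar body protein gene of type 2 cells, 49967 and 35692. Of the 4 genes read from plain probe sets, Clic5, a type 1 cell gene, had 38339 and 50682, and Itga8, the integrin alpha 8 chain, 45213 and 35506. Cxcl15, a chemokine made in lung epithelium, had 42607 and 28744, and Sfta3-ps, a surfactant-associated pseudogene, 21895 and 30278. The remaining 7 were Ehd2 (32541 and 44703), Yeats4 (34513 and 40072), Bod1 (34120 and 33991), Lgals3bp (29792 and 42074), Slc1a5 (29071 and 42085), Mcl1 (25259 and 47870) and Bgn (31140 and 23165). Their order depended on the array: 10 of the 15 were brighter on 1b and 5 on 1a, and Mcl1, an anti-apoptotic gene, differed most (0.92). A further probe set of C, for the surfactant protein gene Sftpa1, was brighter than all of these with 56450 and 64759, and is named after its values were seen. It is a suffixed probe set, and a plain probe set of Sftpa1 on the same arrays had 1093 and 746.

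**Figure D1:**
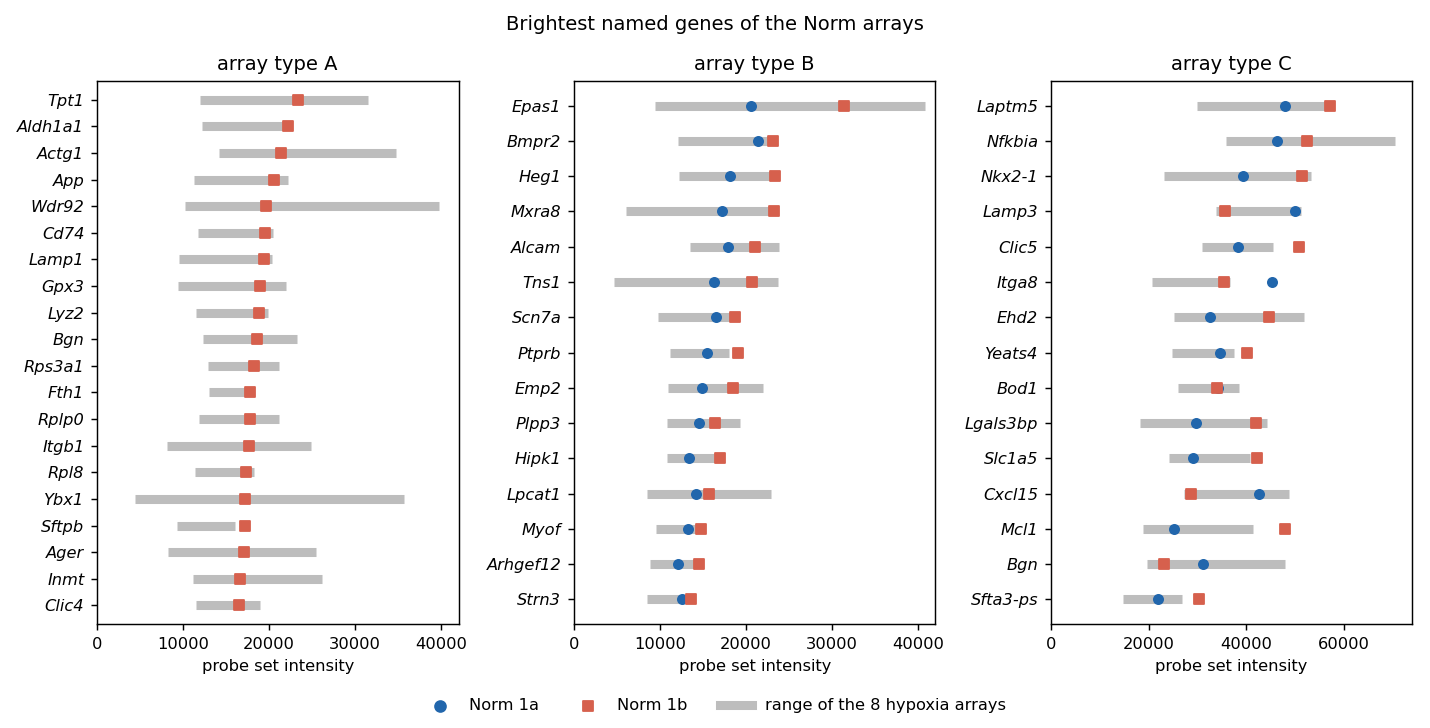
Intensities (linear scale) of the 20 brightest named genes of type A and the 15 brightest of B and of C, with Norm 1a as circles, Norm 1b as squares and the range of the 8 hypoxia arrays as grey bars. On B every square lies to the right of its circle, on C 5 lie to the left, and most symbols lie inside the grey bars. A Norm symbol lies right of the bar for 2 genes on A, 5 on B and 6 on C, and left of it for 0. Among those to the right are Sftpb on A (17146 against at most 16067) and, on C, Clic5 (50682 against at most 45422) and Itga8 (45213 against at most 36607). The genes were chosen as the brightest on these same Norm arrays, which favours the right side. These counts are therefore no comparison of Norm with hypoxia.

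Bright genes of different lists differed in promoter sequence, a feature that the ranks did not use. RefSeq promoters (GRCm38.p6) were matched for 12681 of the 15964 named genes, and CG pairs, which crowd in the promoters of many broadly expressed genes, were counted in the 250 bases before the start. Over all 27025 RefSeq promoters 38.2% held 10 or more CG pairs. Among the named genes with a promoter the share was 62.8%. It was 75.2% of 1978 bright, 69.0% of 7345 middling and 41.9% of 3358 dim genes. At percentile 99 or over it was 69.9% of 183 genes, near the share of the middling genes. Within the bright genes the lists differed. Of the 55 bright ribosomal, respiratory and housekeeping genes with a promoter 44 held 10 or more, with a median of 16 pairs, whereas of the 73 bright genes of the lung cell type lists 30 did, with a median of 7. Over all list members with a promoter, bright or not, 8 of 13 type 1, 9 of 16 ciliated and 8 of 15 endothelial genes held 10 or more. For type 2 cells it was 6 of 16, for club cells 1 of 12 and for macrophages 1 of 15. The cell type genes printed below therefore do not stand for every list. The sequences are the last 100 bases before the start, with CG pairs in capitals. They belong to 2 of the brightest widely expressed genes and to the surfactant protein genes Sftpa1 and Sftpb of type 2 cells. The others are of the club cell gene Cyp2f2 and the macrophage gene Lyz2.
Tpt1, chr14:75845156-75845255, plus strand: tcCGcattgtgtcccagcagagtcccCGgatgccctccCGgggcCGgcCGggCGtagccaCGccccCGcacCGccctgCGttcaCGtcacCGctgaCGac
Rplp0, chr5:115559367-115559466, plus strand: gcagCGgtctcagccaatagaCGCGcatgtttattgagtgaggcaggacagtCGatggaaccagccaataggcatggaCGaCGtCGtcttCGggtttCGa
Sftpa1, chr14:41131688-41131787, plus strand: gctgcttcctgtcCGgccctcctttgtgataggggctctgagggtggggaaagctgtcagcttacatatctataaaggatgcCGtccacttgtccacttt
Sftpb, chr6:72304510-72304609, plus strand: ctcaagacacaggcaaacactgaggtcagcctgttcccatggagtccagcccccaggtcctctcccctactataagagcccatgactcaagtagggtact
Cyp2f2, chr7:27119855-27119954, plus strand: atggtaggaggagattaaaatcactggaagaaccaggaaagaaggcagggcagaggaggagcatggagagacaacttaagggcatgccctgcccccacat
Lyz2, chr10:117282273-117282372, minus strand: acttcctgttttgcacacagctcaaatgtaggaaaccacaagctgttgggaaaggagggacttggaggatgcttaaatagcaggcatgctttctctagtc
The stretch of Tpt1 holds 13 CG pairs and that of Rplp0 9, while that of Sftpa1 holds 2 and those of Sftpb, Cyp2f2 and Lyz2 hold 0. Over the full 250 bases the counts were 33 for Tpt1, 19 for Rplp0, 3 for Sftpa1, 7 for Sftpb, 0 for Cyp2f2 and 1 for Lyz2, against a median of 13.0 over the named genes. The motif TATAAA, searched on both strands between 42 and 19 bases before the start, was in 1.72% of bright, 1.97% of middling and 5.48% of dim genes, against 2.76% of all RefSeq promoters. A match is a description of the letters and does not show that a factor binds there.

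Markers of the alveolar epithelium were the brightest of all lists. Of 21 type 2 cell genes 20 were bright and 1 dim, with a median percentile of 98.4, against 15.5% bright over all named genes. Lamp3, Nkx2-1 and Lpcat1, given above, led the list at percentile 99.9. Sftpc, the surfactant protein gene that defines type 2 cells (named after its values were seen), had an intensity of 7199, percentile 98.0. It stood at 13211 on the A array labelled 4 d 1a and ranged from 3316 to 42808 over the hypoxia arrays. The dimmest members were Sftpd, a surfactant protein of host defence, at 142 (percentile 32.1, under the floor), and Fasn, fatty acid synthase, at 3452 (93.7). Sftpd was read from 1 probe set, which lay between 122 and 368 on all hypoxia arrays as well. Of the 15 type 1 cell genes 13 were bright and none dim, with a median of 98.8. Emp2 and Clic5 led with Ager. The least bright were Pdpn, a membrane glycoprotein gene used to mark these cells, at 1196 (78.1), and Rtkn2, at 630 and 369 (52.8).

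**Figure D2:**
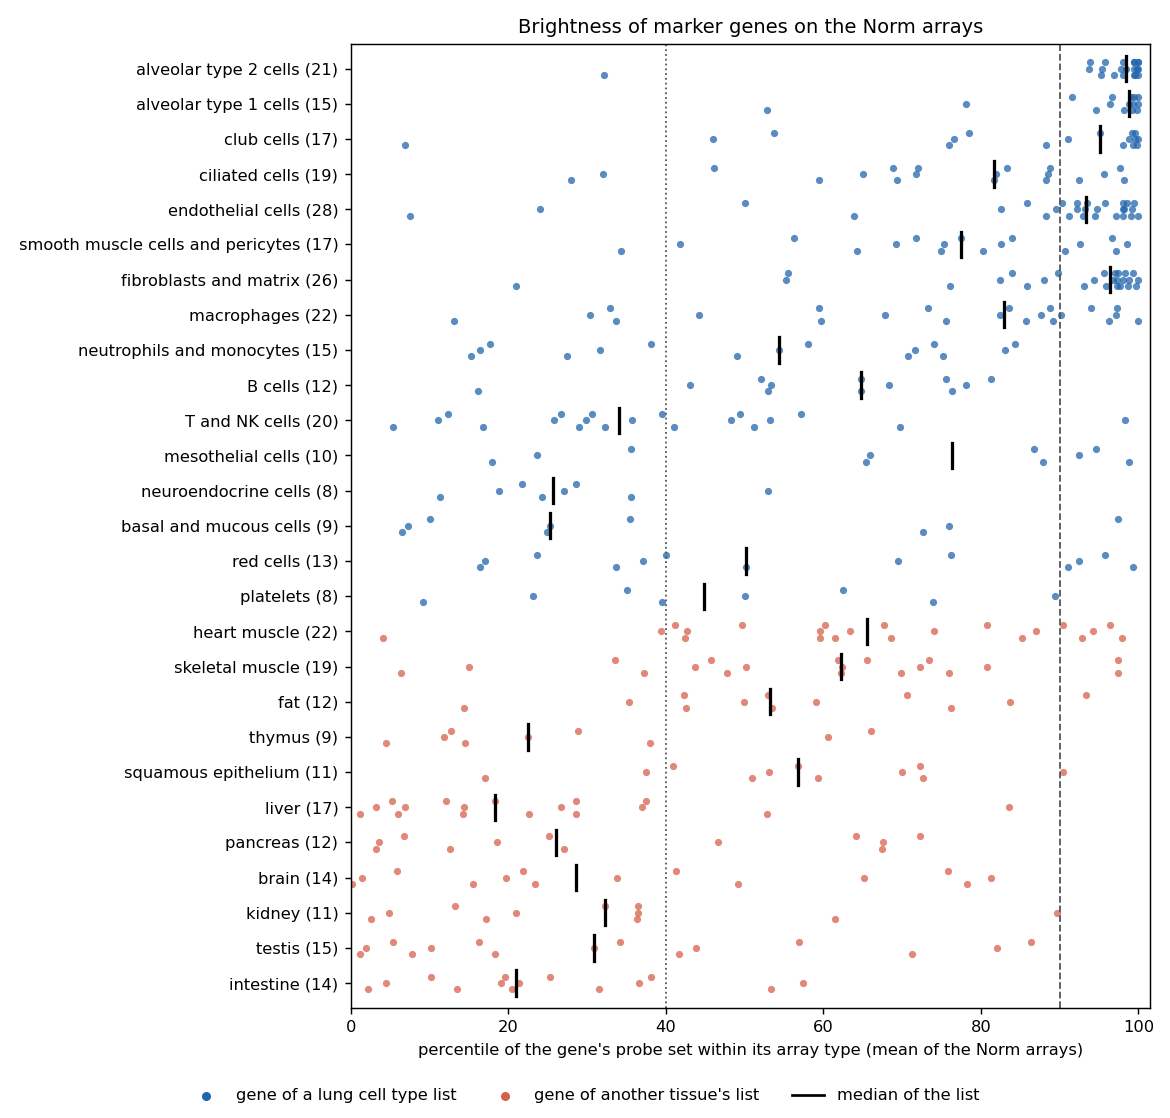
Percentile of each measured gene of 16 lung cell type lists (upper part) and 11 lists of other tissues (lower part) on the Norm arrays, 1 point a gene, with the number of genes in brackets, the list's median as a bar, and lines at percentile 40 (dotted) and 90 (dashed). The alveolar, club, endothelial and fibroblast lists have medians of 93.4 to 98.8, and liver, intestine and thymus medians of 18.3 to 22.5.

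Genes of the airways were mostly bright for club cells and mostly dim for the rarer types. Those of ciliated cells were mostly middling, like all named genes. Of 17 club cell genes 10 were bright, 6 middling and 1 dim. Aldh1a1 led, followed by Fmo2, a flavin monooxygenase gene, at 18091 and 11102 on B (99.8), and the cytochrome gene Cyp4b1 at 15597 (99.6). Scgb1a1, the secretoglobin that defines club cells (named after its values were seen), had 12923 (99.2), within a hypoxia range of 4110 to 45063. The dimmest were Cbr2, a carbonyl reductase gene, at 299 (46.0), and Scgb3a1, a secretoglobin of the larger airways, at 20 and 49 (6.76). Of 19 ciliated cell genes 4 were bright (21.1%), 13 middling (68.4%) and 2 dim (10.5%), against 15.5%, 57.5% and 27.0% of all named genes. Their median percentile was 81.6, against 63.7. Pltp, a phospholipid transfer protein gene that other cells also use, had 7655 (98.2), and the ciliary genes Dynlrb2, a dynein chain, and Sntn had 6356 and 8443 (97.6) and 3858 and 5781 (95.6). Dnah5, a dynein heavy chain of motile cilia, at 221 and 92 (32.0), and Tekt1, at 109 (28.0), were dim. Of 9 basal and mucous cell genes 6 were dim. Muc5b, an airway mucin gene, was bright at 5316 and 9834 (97.4) on a suffixed probe set, Krt15, a basal keratin gene, had 1161 and 1100 and Tff2 945. Muc5ac, the mucin of goblet cells, had 17 (6.51) and Spdef, the transcription factor of goblet cells, 19 (7.3). Of 8 neuroendocrine genes 7 were dim. The brightest, Uchl1 at 415 (53.0), is also made in neurons, and Resp18 and Pcsk1 followed at 174 and 114, with Syp (56) and Scg5 (29) last.

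Endothelial genes were bright as a group, while the mural cell genes were mostly middling. Of 28 endothelial genes 20 were bright, 6 middling and 2 dim, with a median of 93.4. Behind Ptprb, the junction cadherin Cdh5 had 14308 (99.4) and Eng, endoglin, 12381 (99.2). Nos3, the nitric oxide synthase of endothelium, had 83 (24.0) and Prox1, the transcription factor of lymphatic endothelium, 19 (7.46), both under the floor. Pecam1, a classical endothelial marker named after its value was seen, was only middling at 359 (50.1). All 3 were read from 1 probe set each. Of 17 smooth muscle and pericyte genes 5 were bright, 11 middling and 1 dim. Mylk, myosin light chain kinase, had 9142 (98.6), Acta2, smooth muscle actin, 5726 (97.1) and Tagln 5191 (96.6), while the pericyte genes Rgs5 (320 and 325, percentile 41.8) and Kcnj8 (163, 34.3) were lowest.

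Of the 43 genes of pulmonary vascular control, which overlap with the endothelial list, 20 were bright, 16 middling and 7 dim. Beside Bmpr2 and Epas1, Tgfbr2 had 9348 and 10052 (99.5). Among the genes named after their values were seen, Acvrl1, a further receptor of this family mutated in vascular disease, had 3902 and 6329 (97.4), while Bmpr1a, a type I BMP receptor, had 3088 and 2459 (92.5) and the TGF-beta receptor Tgfbr1 2925 and 2428 (92.2). The soluble guanylate cyclase chain Gucy1b1, the receptor for nitric oxide and also named after its values were seen, had 6945 and 3939 (97.4). Edn1, which encodes endothelin 1, the vessel-constricting peptide, had 710 (66.2), under all 8 hypoxia arrays (1058 to 3370) and under the 2373 of the array labelled 4 d 1a. The 2 dimmest were Vipr1, a receptor for vasoactive intestinal peptide, at 68 (21.2), and Smad9, a BMP signal transducer, at 73 and 29 (9.52).

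Stromal genes were bright. Of 26 fibroblast and matrix genes 17 were bright, 8 middling and 1 dim, with a median of 96.4. Bgn and Inmt led, followed by the basement membrane collagen gene Col4a2 at 17894 and 14254 (99.3). The lowest were Lum, lumican, at 457 (55.3), and Mfap4, a microfibril protein gene, at 67 (20.9). Of 10 mesothelial genes 3 were bright, 4 middling and 3 dim. Upk1b, a tetraspanin gene of the serosal surface, had 9966 and 12259 (98.8), and the keratin genes Krt19 and Krt8, shared with lung epithelium, had 3769 and 2947. Calb2, at 80 (23.6), and Lrrn4, at 143 and 22 (17.9), were dim.

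Of the immune cells, macrophage genes were bright more often (6 of 22) than genes of B cells (0 of 12) or of T and NK cells (1 of 20), a difference that was not tested. Of 22 macrophage genes 6 were bright, 12 middling and 4 dim. Lyz2, which type 2 cells also make, was followed by the cathepsin genes Ctss at 5939 (97.3) and Ctsd at 5828 (97.2). Fcgr3, an Fc receptor gene, had 128 (30.3) and Marco, a scavenger receptor of alveolar macrophages, 34 (13.1). None of 15 neutrophil and monocyte genes was bright and 6 were dim. S100a8, a calcium-binding protein of neutrophils, had 1674 (84.3), Csf3r 1560 (83.0) and Lcn2 1039 (75.2), and the granule genes Ngp (46) and Prtn3 (42) were under the floor. Of 12 B cell genes 11 were middling and 1 dim. Ighm, the immunoglobulin mu chain, had 1421 (81.3), the receptor chain Cd79b 1202 (78.1) and Ms4a1 1098 (76.3), with Ebf1 at 260 and Cr2 at 76 and 85. Of 20 T and NK cell genes 12 were dim and 1 bright. Nkg7, a granule gene of cytotoxic cells, had 8474 and 9746 (98.3), the chemokine gene Ccl5 826 and Cd4 492. The T cell receptor complex gene Cd3g had 14 (5.27) and Cd8b1 28.

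Antigen presentation stood apart from the lymphocyte genes. Of its 17 genes 9 were bright and none dim, led by Cd74, the class I gene H2-D1 at 15188 (99.5) and the class II gene H2-Aa at 10599 (98.9), with Ciita (428) and H2-Oa (403) lowest. Of the 21 genes of an acute graft rejection list, kept because of the text attached to these samples, 2 were bright and 10 dim. Icam1, an adhesion molecule gene that healthy lung endothelium also expresses, had 4139 (95.3), Irf1 2673 (91.4) and Tap1 2123 (88.6). The T cell effector gene Ifng had 3 (0.427) and Cd40lg 6 (1.7). Red cell genes were mixed, with 4 bright, 4 middling and 5 dim of 13. The globin gene Hba-a1 had 13306 (99.3), Bpgm, which makes the effector of haemoglobin, 4873 and 3141 and the haem synthesis gene Alas2 3005, while Car1 (48) and Hemgn (46) were dim. Of 8 platelet genes none was bright and 4 were dim. The chemokine gene Ppbp had 2118 and 2223 (89.4), the integrin genes Itga2b and Itgb3 688 and 1231, and 458 and 1112, and Gp5 (78) and Pf4 (23) were lowest.

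Lists of other tissues were mostly dim, except for heart, skeletal muscle, fat and squamous epithelium. Over all 11 such lists 9 of 156 genes (5.77%) were bright and 77 (49.4%) dim, and on the A array labelled 4 d 1a together with the B and C Norm arrays 5 were bright. Of 22 heart genes 5 were bright, 15 middling and 2 dim. Actc1, cardiac actin, had 7029 (97.9) on a suffixed probe set, and the atrial myosin chains Myl7 and Myl4 had 4975 (96.4) and 3637 (94.2). Myl2, the ventricular chain, had 11 (4.07) and Sln 216. Of 19 skeletal muscle genes 2 were bright and 4 dim. Acta1, skeletal actin, had 6076 (97.4), Pvalb 10719 and 5148 (97.4) and Eno3 1386, with Myh2 at 41 and Tnnc2 at 17. Of 12 fat genes 1 was bright and 2 dim. Plin4, a lipid droplet gene, had 5858 and 2404 (93.4), Car3 1624 and the hormone gene Lep 1095, with Slc2a4 at 172 and Cidec at 38. Of 11 squamous genes 8 were middling. The oesophageal keratin gene Krt4 had 2450 (90.4), Krtdap 941 and Sbsn 923 and 1058, with Krt10 at 193 and Lor at 48.

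The other 7 tissues had no bright gene. Liver had 15 of 17 dim, intestine 12 of 14, kidney 9 of 11, thymus 7 of 9, testis 9 of 15, pancreas 7 of 12 and brain 8 of 14. The highest of liver was Cyp2e1, a cytochrome also made in lung, at 1613 (83.6), followed by Hpx (208 and 634) and Cps1 (194), and the fibrinogen gene Fgb had 5 (1.13) and Ambp 9. Of thymus, Satb1 (708), Cd1d1 (564) and Foxn1 (364 and 200) were highest, and the recombinase genes Rag2 (30) and Rag1 (12) lowest. Kidney was led by Slc5a2, a glucose transporter gene, at 2137 and 2273 (89.6), then Slc12a3 (546 and 832) and Aqp3 (296 and 223), with Miox at 13 and Umod at 8. Testis was led by Acr, Ddx4 and Prm1, each on a suffixed probe set of C (2018 and 1644, 1523 and 1283, 696 and 928), with Sycp1 at 6 and Ldhc at 5. Pancreas was led by Ctrb1 (929), Cel (751) and Gcg (807 and 568), with Ins2 at 10 and Iapp at 9, and brain by Syn1 (1326 and 1336), Mbp (1210) and Syn2 (1046 and 961), with Snap25 at 18 and 7 and Camk2a at 1. Intestine was led by Reg1 (494), Muc2 (589 and 420) and Fabp6 (202), with Reg3b at 12 and Vil1 at 7. The leading members of testis, and Syn1 and Syn2 of brain, were read on C and lay under the percentiles of 91.8 (1a) and 86.8 (1b) that a control probe set without a target reached there.

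The housekeeping, respiratory chain and ribosomal lists held a larger share of bright genes than the 15.5% of all named genes. Of 22 housekeeping genes 15 were bright and none dim, with Actg1, Tpt1 and Fth1 at the top and Pfn1, profilin, at 527 (58.9) and Tbp, the TATA-binding protein, at 403 (52.3) at the bottom. Of 75 respiratory chain and ATP synthase genes 34 were bright and 4 dim, from Cox5a (13747 and 15301, percentile 99.2), Cox6a1 (9973) and Cox6c (9891) to Ndufc2 (174) and Cox8a (85). This list includes muscle or testis forms such as Cox6a2, which is also on the heart list, and Cox6b2. The 45 ribosomal protein genes, a list that also holds the tissue-restricted relatives Rpl3l and Rpl10l, were split into 19 bright, 12 middling and 14 dim. Against 18223 for Rps3a1 stood 29 for Rpl7 (percentile 11.6) and 38 and 19 for Rps15a (6.20). A second, suffixed probe set of Rpl7 on the same array stood at percentile 99.7 and was not used, since plain probe sets came first. Of 22 immediate early genes 7 were bright. The phosphatase gene Dusp1 had 8998 (98.6), Ier3 6852 and Jund 6612, and Egr2 (294) and Myc (96) were lowest. Of 26 cell cycle genes 11 were dim and 1 bright. Mcm5 had 10465 and 8557 on a suffixed probe set (98.4), the polymerase clamp gene Pcna 1685 (84.5) and the thymidine kinase gene Tk1 1241 and 974, while Bub1 (27) and Kif20a (8) were under the floor. The Y-linked genes Kdm5d (834 and 641, percentile 64.5) and Eif2s3y (555, 60.2) stood above the floor and Uty (219, 39.7) just under it. Xist, the RNA of the inactive X chromosome, had 81 (23.7) and stayed under the floor on all 8 hypoxia arrays too (11 to 193).

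How far a rank speaks for a gene was checked where a gene had several probe sets. Of the genes with 2 or more plain probe sets on a type, 52.8% (A, 817 genes), 57.4% (B, 1720) and 52.5% (C, 461) had them in different classes. The Spearman correlation between the percentiles of 2 such probe sets was 0.189, 0.137 and 0.156. For genes carried by 2 types the correlation was 0.0932 between A and B over 2119 genes, 0.115 between A and C over 2049 and 0.162 between B and C over 2287. These are descriptions across genes, which are not independent replicates.

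The 2 Norm samples agreed closely among bright probe sets and poorly among dim ones. On B the Spearman correlation of 1a with 1b was 0.926, and with values under the floor set to it 96.3% of the probe sets lay within 2-fold, with a median absolute log2 difference of 0.139. On C the correlation was 0.872, 89.9% lay within 2-fold, and the median was 0.202. Over 2-fold apart were thus 462 of 12411 on B (3.72%; 174 higher on 1b and 288 on 1a) and 1195 of 11868 on C (10.1%; 529 and 666). The brightest 1% were shared for 92 of 124 probe sets on B and 97 of 119 on C, and of the bright ones on 1a 1020 of 1242 and 1014 of 1187 were bright on 1b. The same class was given by both arrays to 85.7% of probe sets on B and 80.9% on C. Bright on either array and dim on the other were 0 on B and 1 on C. The pairs of the hypoxia groups had correlations of 0.942 to 0.971 on B, all above the Norm pair, and of 0.871 to 0.913 on C, where only the 10 h pair was below Norm.

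**Figure D3:**
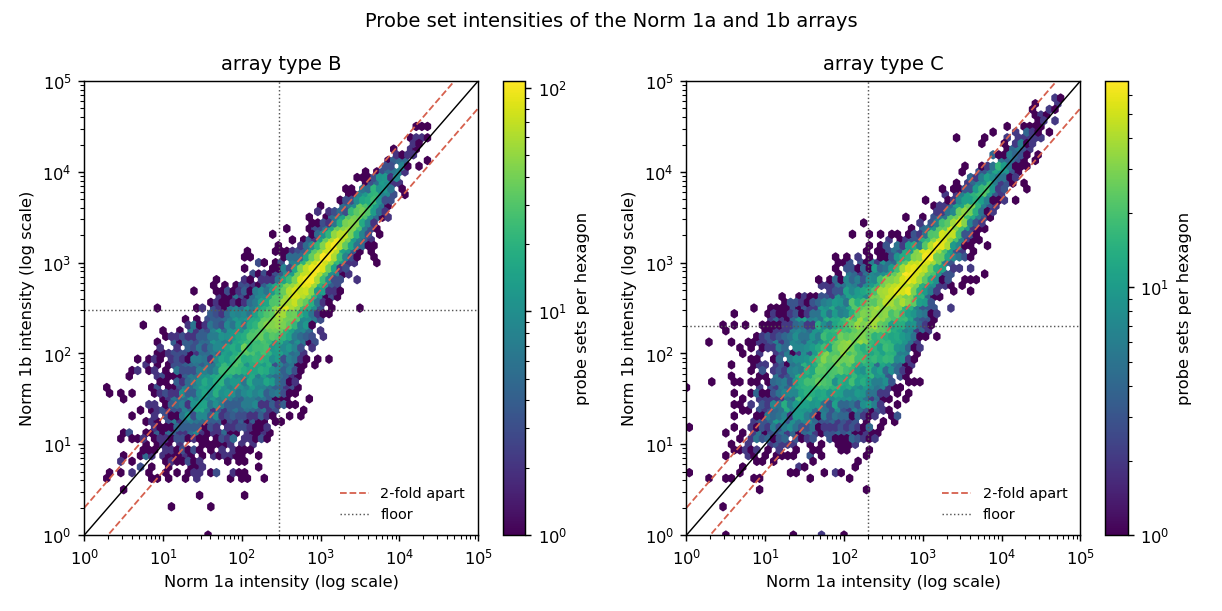
Intensity of every probe set on Norm 1a (horizontal) and Norm 1b (vertical) on B (left) and C (right), both axes logarithmic, with the number of probe sets per hexagon in colour, the line of equality, dashed lines at 2-fold and dotted lines at the floor. The cloud narrows above the floor and is wider on C (89.9% within 2-fold once values under the floor are set to it) than on B (96.3%).

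Without a floor, the share over 2-fold apart was far lower in the brightest than in the dimmest probe sets. In the dimmest 10% of B it was 43.8% and in the brightest 10% 3.30%, and on C 44.7% and 5.14%. The median absolute log2 difference went from 0.854 to 0.271 on B and from 0.872 to 0.266 on C. On B the direction changed along the scale as well, with a median of 1b minus 1a of -0.0650 in the dimmest band, no lower than -0.235 in any band and 0.108 in the brightest, while on C it went from 0.245 in the dimmest to 0.0141. The brightest band of B thus lay towards 1b at the median, the direction of all 15 genes named above.

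**Figure D4:**
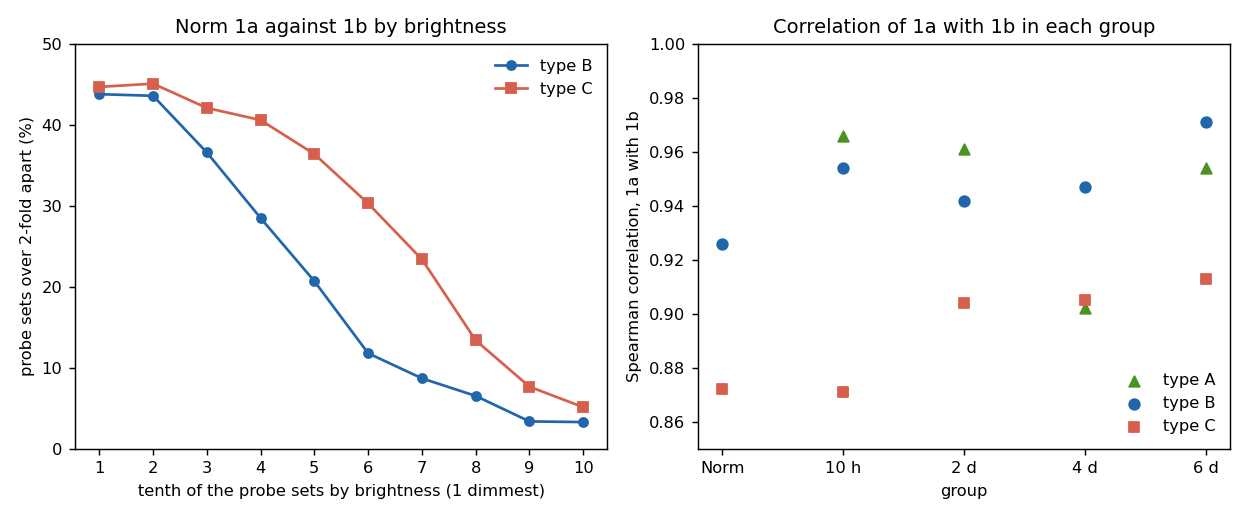
Left, the percentage of probe sets over 2-fold apart between Norm 1a and 1b without a floor, by band of mean brightness (10% of the probe sets each), on B (circles) and C (squares). Right, the Spearman correlation of 1a with 1b in each group, with 0.926 (B) and 0.872 (C) for Norm and no Norm pair on A (triangles).

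Some marker lists leaned to 1a or to 1b. Whether the lists held fewer genes over 2-fold apart than the background was not tested. Of the 9575 named genes read on B or C, 642 (6.70%) lay over 2-fold apart. Type 2 cell genes leaned to 1a (8 of 10 higher, median 1b minus 1a -0.314), none of them over 2-fold. Ciliated cell genes leaned to 1b (8 of 13 higher, median 0.405), with 1 over 2-fold, and endothelial genes too (6 of 10, median 0.269, none). All 3 heart genes on B and C were higher on 1a (median -0.788). The median of all 9575 was 0, with 3891 higher on 1b, 3731 on 1a and 1953 at the floor on both.

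Single genes differed more. With values under the floor set to it, the widest gaps on B towards 1a were Ap2b1, an adaptor chain of endocytosis (2922 against 322), Zc3h7b (5441 against 971), the kinase gene Pbk (1264 against 82), Nol10 (1250 against 274) and the matrix protein gene Npnt (4628 against 1243). Towards 1b they were Pml (274 against 1581), the transcription factor gene Foxo1 (289 against 1293), Vps11 (442 against 1769), Plekhg2 (955 against 3758) and Marf1 (987 against 3788). For 9 of these 10 genes, Marf1 being the exception, at least 1 of both arrays lay outside the range of all 8 hypoxia arrays. The genes were chosen for the widest gaps on these same Norm arrays, which favours values outside that range. The share over all probe sets was not counted, so this is no comparison of Norm with hypoxia. For Ap2b1 it was 1b, since the hypoxia arrays had 469 to 3636, and for Foxo1 it was 1a, since they had 838 to 1528. On C, 7 of the 10 were read from suffixed probe sets. They were Mocs3 (4027 against 483), Pttg1 (5942 against 806), Stk38 (1451 against 154), 2310026I22Rik (2170 against 307) and Apoe (2250 against 324) towards 1a. Towards 1b they were 4921525O09Rik (215 against 1966), Gpatch1 (2842 against 24462), Fam117b (269 against 1957), 1810035K13Rik (226 against 1537) and Tcf3 (190 against 1355).

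Few bright genes were as far apart. The 5 brightest of B that differed over 2-fold were Prrc2a (8462 and 19162), Olfml3 (12418 and 5883), Trim34a (4506 and 9143), Hilpda, a lipid droplet gene that responds to low oxygen (4300 and 8639), and Igf1r, the receptor of insulin-like growth factor 1 (3625 and 9882). On C they were Tmem212 (14198 and 28735), Igf1r (11367 and 23356), Slc38a2 (11083 and 24499), the interferon factor gene Irf7 (7502 and 25494) and Pik3r1 (19220 and 7897). Igf1r was higher on 1b on both types, by 1.45 and 1.04 on the log2 scale. The 3' to 5' ratios of the labelled control genes differed between the samples too. The ratio of the 3' to the 5' probe set of Gapdh was 0.926 on 1a and 1.51 on 1b on B, and 0.815 and 1.33 on C, with 1.19 on A 1b. For beta-actin the ratio was 0.0453 and 0.775 on B, 0.104 and 0.926 on C and 0.644 on A. The 3' probe set of beta-actin carried this gap, with 842 on 1a and 14883 on 1b on B and 4650 and 32393 on C, and its part in the other differences between the samples was not tested. Low beta-actin ratios were not particular to Norm 1a. On B the 10 h arrays had 0.0522 and 0.0430 and the 4 d arrays 0.0272 and 0.0427. On C these groups had 0.105 and 0.0581, and 0.157 and 0.0979. The 2 d and 6 d arrays of B and C had 0.474 or more.

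Against the lungs in low oxygen, the Norm profile was about as close as 1a was to 1b. The A array labelled Norm 1b correlated with the 8 hypoxia arrays at 0.913 to 0.964. On B, 1a stood at 0.899 to 0.949 and 1b at 0.907 to 0.943, beside 0.926 between them, and on C at 0.866 to 0.903 and 0.849 to 0.879, beside 0.872. The 4 hypoxia groups, averaged, were compared with Norm in a limma fit, and 0 of 25801 probe sets passed an adjusted p of 0.05 (0%; smallest adjusted p 0.156), with 2011 at an unadjusted p under 0.05. With the A labels of Norm 1b and 4 d 1a exchanged, 26 probe sets passed. The number also changed when Norm 1a, Norm 1b or 4 d 1b was left out. Without Norm 1b type A has no Norm array, so only B and C were tested there. The 2 d arrays stood apart in RNA integrity, with 3' to 5' ratios of Gapdh and beta-actin between 3.64 and 4.98 on each of them, above every Norm ratio given above, and the part of this in the comparison was measured only by leaving them out. With both 2 d samples left out, an alternative added after seeing the data, 0 probe sets passed (smallest adjusted p 0.208). Of 533 tested members of the 36 lists 0 passed in the comparison with all samples and 53 had an unadjusted p under 0.05. On simulated data the same fit recovered 46.3% of 300 probe sets changed by 1 on the log2 scale and 89.3% of 300 changed by 2. The simulated noise was independent between arrays and had the spread of the 1a and 1b pairs. It held no floor and no differences between the hypoxia groups. These shares may therefore overstate what the fit could find in the real arrays.

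Several muscle genes were higher on the A array labelled Norm 1b than on all 8 hypoxia arrays. On A, 7 of 17 tested heart genes and 6 of 12 skeletal muscle genes were higher on the array labelled Norm 1b than on all 8 hypoxia arrays, against 7.07% of the 4951 named genes tested on A. Acta1 had 6076 on Norm 1b and 27 to 3941 on the hypoxia arrays, with 1700 on the one labelled 4 d 1a, and its log2 difference of hypoxia minus Norm was -2.80 ± 0.38 (SE; limma adjusted p 0.156). Without sample 4 d 1b it passed, at -2.95 (limma adjusted p 0.0429), as did Edn1 at 1.65. Myl7 had 4975 against 1758 to 3181 (-1.03 ± 0.18, limma adjusted p 0.259) and Myl4 3637 against 1271 to 2638 (-1.01 ± 0.20, 0.306), and the groups did not overlap for either gene. The differences of the skeletal muscle genes Atp2a1, a calcium pump gene, and Myh1, a myosin chain gene, were -1.52 ± 0.30 (limma adjusted p 0.306) and -1.10 ± 0.19 (0.251). Differences of this size were not limited to muscle genes, with -1.62 ± 0.33 for the ciliary gene Spag6l on C (limma adjusted p 0.306) and 1.51 ± 0.33 for Edn1 on A (0.357). These 4 genes were chosen after their values were seen. Of the 5 heart and skeletal muscle genes tested on B and C, 0 lay above all hypoxia arrays. There both Norm arrays had to lie above them, which is rarer than for the 1 Norm array of A. With so few genes this cannot show whether B and C differ from A. The amount of heart, vein or muscle tissue in a lung sample was not measured.

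**Figure D5:**
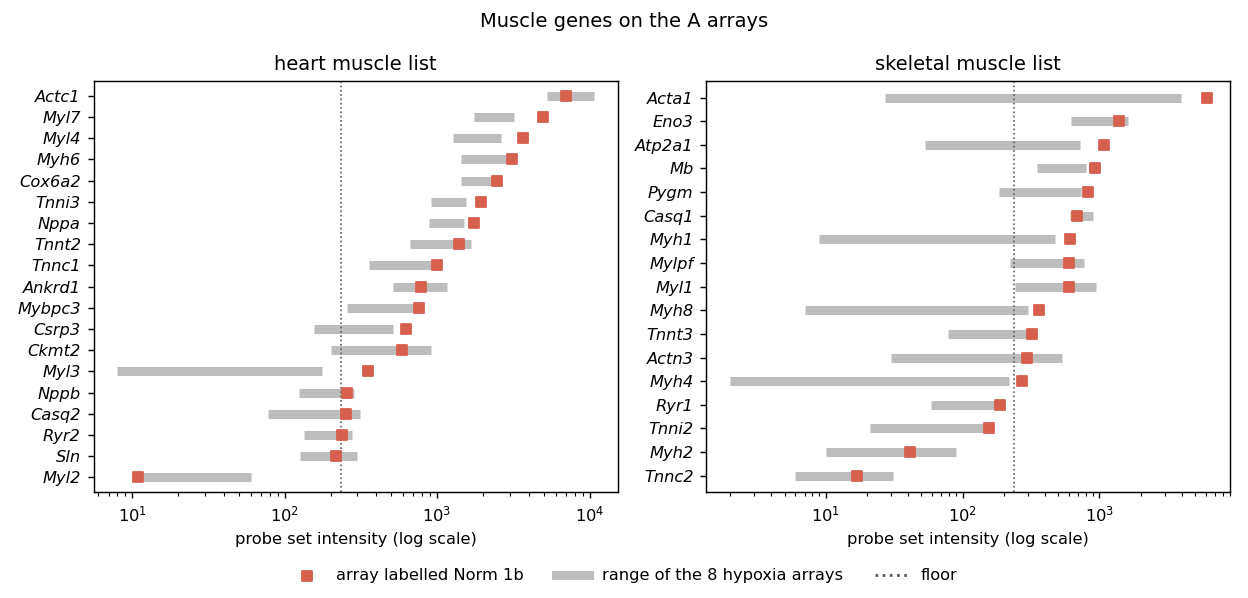
Intensity (log scale) of the genes of the heart and skeletal muscle lists that were read on type A, with the array labelled Norm 1b as squares, the range of the 8 hypoxia arrays as grey bars and the floor as a dotted line. Acta1 (6076 against at most 3941), Myl7 (4975 against at most 3181) and Myl4 (3637 against at most 2638) lie right of their bars, while Myl2 (11) stays under the floor.

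Of all 25801 probe sets tested, 13307 had a positive difference of hypoxia minus Norm. Of 19 ciliated cell genes 16 had a negative one (median -0.220). Of these 19, 3 (Dynlrb2, Dnaic1 and Rfx3), read on B or C, were higher on both Norm arrays than on all 8 hypoxia arrays. The share over all 12802 named genes tested was 4.48%. It includes type A, with 1 Norm array and 7.07%, so the share on B and C alone was lower. Of 22 cell cycle genes 21 had a positive difference (median 0.370) and 3 (Ccnb2, Mcm3 and Mcm7) were lower on Norm than on all hypoxia arrays, against 3.35% of the named genes. These 3 were among the 17 read on A, where the background was 5.92%. Ccnb2, a cyclin of mitosis, had 923 against 1054 to 2248. The B cell genes Cd79a, Cd79b and Fcer2a, 3 of the 10 tested on A, were above all hypoxia arrays there. The background was 7.07% of the 4951 named genes tested on A, which has 1 Norm array. Of 11 tested B cell genes 9 had a negative difference (median -0.266). For type 2 cells (median 0.0473), type 1 cells (-0.0207), macrophages (0.0177), ribosomal (-0.0152) and housekeeping genes (0.00366) the median lay near that of all probe sets, 0.0112. None of these members passed the test.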

How the data were processed

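The deposited tables give, for each array, a linear intensity per probe set. The software behind it is not given in the sources used here, and the authors' scaling is known only from the values. The mean intensity of the 29 arrays used, after trimming 2% at either end, lay between 791.4 and 799.5, so no further normalization was applied. The number of arrays limits the precision.

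Ranks were taken within each array and type without the 66 control probe sets, in Python 3.11.15 with pandas and numpy. Symbols were taken from GEO's platform annotation, in places outdated. Probe sets with 1 symbol, several or none numbered 10833, 396 and 1193 (A), 10581, 178 and 1652 (B) and 7717, 150 and 4001 (C). A gene was read from a plain probe set before a suffixed one, then from the one with the highest mean over all arrays of the type, then from the type with the highest Norm percentile. Named were the 20 brightest genes of A and 15 of B and of C, the 3 brightest and 2 dimmest members of each of 36 lists, the 5 genes furthest apart each way between 1a and 1b, the 5 brightest over 2-fold apart, all sex-linked genes, and the Gapdh and beta-actin controls; others are said to have been chosen after their values were seen. The lists and the samples described were chosen with earlier results of these data known.

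For hypoxia minus Norm, intensities under the floor were set to it, log2 was taken, and probe sets that exceeded it on 2 or more arrays (25801) were fitted by group (5 groups a type) with limma 3.58.1 under R 4.3.3, using eBayes with a trend. The test was two-sided, with Benjamini-Hochberg adjustment over all types at 0.05. On A the 1 Norm array was assumed to vary as the other groups do. On simulated data the fit called 23 unchanged probe sets beside the changed ones. Alternatives were other scalings, floors, filters and thresholds, other choices of probe set, leaving out samples, and, chosen after seeing the data, use of the A array labelled 4 d 1a and leaving out both 2 d samples.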

Additional observations from a re-analysis of the deposited data

How the results depend on the processing

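The ranks do not depend on scaling. The correlation of 1a with 1b used ranks of values without a floor. Its value of 0.926 on B under each scaling and floor tried was therefore fixed in advance and shows no robustness. On B it was 0.894 over probe sets above the floor on both arrays. On C it moved by less than the spread between the groups' pairs under each alternative tried. The share within 2-fold depended on the floor: 79.3% on B and 71.1% on C without a floor, and 88.6% and 78.7% with a floor at the 20th percentile. With a gene read from its probe set of median percentile 8 of the 15 brightest B genes stayed, and with plain probe sets only 4 of the 15 of C. The bright genes of other tissues, 9 of 156, became 5 with the hypoxia arrays in place of Norm, 5 with the A array labelled 4 d 1a in place of Norm 1b, 4 with bright set at percentile 95 and 19 at percentile 80. With dim set under percentile 30, 37 of the 260 cell type genes were dim, against 56. On B and C only, where fewer genes are measured, 39 bright and 23 dim cell type genes and 2 bright and 38 dim genes of other tissues were counted. Leaving out Norm 1a or 1b gave 40 to 105 bright and 20 to 54 dim cell type genes, and 2 to 9 bright and 36 to 78 dim genes of other tissues; the low ends are without 1b, which leaves no A array.

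For hypoxia minus Norm, limma called 0 probe sets, with 2011 at an unadjusted p under 0.05. It called 94 probe sets and 5 list members without a filter on dim probe sets, where values at the floor have almost no spread, 1 probe set with the floor at the 20th percentile, and 26 probe sets and 1 list member (Jchain) with the A labels of Norm 1b and 4 d 1a exchanged. Leaving out 1 sample at a time gave 0 to 10 probe sets and 0 to 2 list members. The letters 1a and 1b did not pair the samples (correlations of same-lettered deviations -0.158 to 0.134), and with the replicate block 0 probe sets and 0 list members were called (smallest adjusted p 0.280); with both 2 d samples left out, 0 and 0. Of 792 counts of bright or dim members of single lists under these alternatives, 604 stayed within 1.5 times and 188 did not. The cause of these changes was not tested. Signal over background limits all of this: dim probe sets carry little order.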
